A study of Mus musculus with 6 samples.

Results

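The potassium channel genes are the 92 rows of the deposited table whose symbol begins with Kcn and 1 or more further letters, with or without a number, out of 24841 genes. Another 4 symbols of that form, which end in os and name transcripts from the opposite strand, were left out. Of the 92 members, 91 are protein-coding in the mm10 annotation, and the remaining one, Kcnq1ot1, is an antisense RNA from within Kcnq1. The nuclei came from flash-frozen, dissected mouse striatum, in 3 wild type libraries and 3 libraries heterozygous for Celsr3, an atypical cadherin with a role in axon guidance. Neither group had a treatment in the labels, which give genotype and a biological replicate number but no age, sex, strain, kind of allele or number of animals per library. Each library was a 10x Genomics 3′ single-nucleus library, and all 6 shared a sequencing lane. P-values therefore measure the spread between these libraries.

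Potassium channels let potassium ions leave or enter a cell and so set its resting potential, the shape of its action potentials and its firing rate. Voltage-gated (Kv) channels open when the membrane is depolarised, calcium- and sodium-activated channels follow the ion that entered during firing, inward rectifiers hold the membrane near rest, and leak channels with tandem pores pass a standing current. Medium spiny neurons (MSNs) are the GABAergic projection neurons of the striatum. They are known for a very negative resting potential held by Kir2 inward rectifiers and for A-type potassium currents that delay their first spike. They divide into cells with the dopamine receptor Drd1 and cells with Drd2. Fast-spiking interneurons are known for Kv3 channels, astrocytes for Kir4.1, and the choroid plexus, the epithelium that secretes cerebrospinal fluid, for Kir7.1.

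Promoter sequences are shown for 3 members on which the results below turn: Kcnj13 (Kir7.1) and Kcne2, a single-pass partner subunit, which were highest in choroid plexus-like nuclei, and Kcnk13 (a leak channel), the member with the largest difference between D1 and D2 MSN-like nuclei. Each is the 250 bases before an annotated start, 5′ to 3′ on the gene's strand, from RefSeq on GRCm38.p6, with motif matches in capitals. The Kcnj13 promoter lies at chr1:87394730-87394979 on the minus strand, the promoters of Kcne2 at chr16:92292139-92292388 and chr16:92295366-92295615 on the plus strand, and that of Kcnk13 at chr12:99964249-99964498 on the plus strand.
Kcnj13: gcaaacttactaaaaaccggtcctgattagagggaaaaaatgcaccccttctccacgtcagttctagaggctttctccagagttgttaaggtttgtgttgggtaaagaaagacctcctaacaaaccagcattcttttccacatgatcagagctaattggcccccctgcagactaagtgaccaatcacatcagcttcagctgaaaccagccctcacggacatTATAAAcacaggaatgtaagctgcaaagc
Kcne2 promoter 1: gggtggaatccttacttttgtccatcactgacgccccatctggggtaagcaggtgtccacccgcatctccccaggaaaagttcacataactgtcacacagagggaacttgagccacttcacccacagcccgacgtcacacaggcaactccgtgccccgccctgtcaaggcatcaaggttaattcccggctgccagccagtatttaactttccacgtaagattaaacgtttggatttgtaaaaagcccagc
Kcne2 promoter 2: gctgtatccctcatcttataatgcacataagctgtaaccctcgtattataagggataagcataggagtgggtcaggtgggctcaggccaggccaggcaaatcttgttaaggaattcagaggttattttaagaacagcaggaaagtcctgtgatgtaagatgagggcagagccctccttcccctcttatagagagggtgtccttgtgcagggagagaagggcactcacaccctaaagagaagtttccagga
Kcnk13: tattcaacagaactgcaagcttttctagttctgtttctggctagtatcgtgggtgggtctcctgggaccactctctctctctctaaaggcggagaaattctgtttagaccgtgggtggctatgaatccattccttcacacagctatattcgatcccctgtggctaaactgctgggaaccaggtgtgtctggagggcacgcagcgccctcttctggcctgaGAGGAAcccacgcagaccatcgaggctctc
The motifs searched, on both strands, were TAATCC, bound by Otx factors of the choroid plexus, TATAAA, the TATA box, and GAGGAA, bound by PU.1 of microglia. The capitals in the Kcnj13 promoter are a TATAAA that begins 29 bases before the start, and the capitals in the Kcnk13 promoter are a GAGGAA that begins 30 bases before it. Neither Kcne2 promoter held TAATCC or TATAAA. Of 32851 promoters of this length, 6.25% held TAATCC, 12.4% held TATAAA and 23.3% held GAGGAA. Among the 92 promoters of the 67 members that matched the RefSeq table, 2 held TAATCC, 3 held TATAAA and 23 held GAGGAA, which is 2.17%, 3.26% and 25%. A match describes the letters and is not a binding site.

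The table held 48834 nuclei, of which 892 likely doublets (1.83%) were left out and 47942 were kept, 7613 to 8689 per library. Values are transcript counts corrected for depth and rounded, so a level below means the mean value per nucleus of a class in a library, averaged over libraries with at least 10 nuclei of that class. Nuclei were clustered without the Kcn genes and named from fixed markers, which gave 17 classes, among them the D1 MSN-like class with 8473 nuclei and the D2 MSN-like class with 7127. Neurons with glutamatergic markers, which are not striatal projection neurons, made up 3881 nuclei, with 1501 in heterozygous library 1 and 196 to 904 in the others. Of the choroid plexus-like nuclei, wild type libraries 1 to 3 held 64, 55 and 0, and heterozygous libraries 1 to 3 held 1, 0 and 128. The choroid plexus transcript Ttr was also found in D1 MSN-like nuclei, at 0.926, 0.772 and 0.0818 in the wild type and 0.0373, 0.0328 and 1.16 in the heterozygous libraries and was thus high in the libraries that held most of those nuclei. Where these Ttr counts came from was not tested. Libraries shared 274 cell barcodes.

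The targeted gene was lower in every heterozygous library. Over all nuclei Celsr3 stood at 0.0746, 0.0995 and 0.108 in the wild type and 0.0612, 0.0695 and 0.0649 in the heterozygous libraries. The groups did not overlap, and the difference was -0.45 on the log2(level + 0.01) scale (limma adjusted p = 0.455). In D1 MSN-like nuclei it was -0.76 (limma adjusted p = 0.148).

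The highest class level was 0.1 or more for 68 members and under 0.1 for the other 24. By class, 14 of the 68 were highest in glutamatergic neuron-like, 10 in GABAergic interneuron-like, 9 in D1 MSN-like and 7 in cholinergic interneuron-like nuclei. Outside neurons, ependymal-like nuclei held the highest level of 5 members, choroid plexus-like nuclei of 4 and oligodendrocyte-like nuclei of 3. Shares of all genes by highest class were not computed, so these counts are not read as a trait of the members. Ependymal-like nuclei were few, 155 in all and 10 to 48 per library. For 33 of the 68 the libraries of the highest class did not overlap those of the second class, which is 48.5%, beside 24.4% of the 14406 genes at 0.1 or more. Ranks are among the 17 named classes, and the 7 unnamed clusters, with 6882 nuclei, are in none of them. Of the 68 members, 28 had a higher mean in an unnamed cluster than in any class, and no share over all genes was computed for this count. It sets single clusters beside pooled classes, and some of the 28 were higher still in a cluster of a named class. Among the 28, unnamed cluster 21 had Kcnip4 at 131 ± 15 and Kcnc2 at 29.0 ± 6.0, and unnamed cluster 27 had Kcnip1 at 9.50 ± 0.99 and Kcnma1 at 15.6 ± 1.0, over 5 libraries each, genes chosen after their values were seen. The classes are clusters of the same nuclei, so differences between them are given as descriptions with no test. Levels are compared for 1 gene at a time, since gene length was not accounted for.

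**Figure D1:**
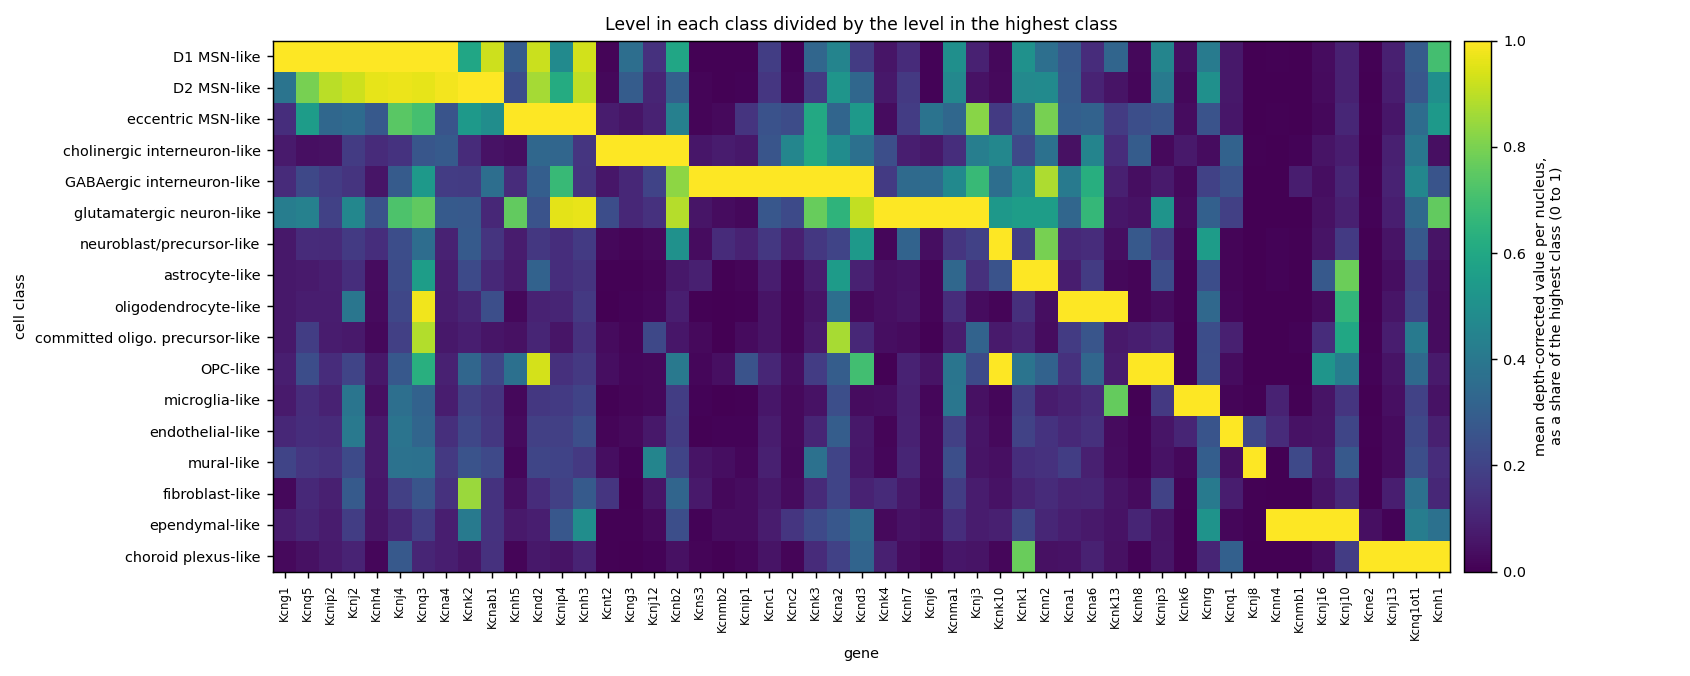
Level of 51 of the 68 members with a highest class level of 0.1 or more, those named in the text (columns), in 17 cell classes (rows), each divided by the level in that gene's highest class (colour, 0 to 1). The D1 and D2 MSN-like classes share most of their bright columns, while Kcnj13, Kcne2, Kcnk6, Kcnj8 and Kcnn4 are bright in 1 non-neuronal class.

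Among shaker-type Kv1 channels, which sit on axons and near nodes, Kcna1 was highest in oligodendrocyte-like nuclei. It averaged 1.96 ± 0.19 there (SD, n = 6; lowest 1.66, median 1.96, highest 2.21), 2.42 times the 0.809 of GABAergic interneuron-like nuclei. All 6 libraries of the oligodendrocyte-like class lay above all 6 of the other. Kcna6 was also highest in oligodendrocyte-like nuclei, at 0.815 ± 0.054, beside 0.544 ± 0.13 in glutamatergic neuron-like nuclei. Kcna2 had its highest level in GABAergic interneuron-like nuclei, 0.638 ± 0.066, and stood at 0.555 ± 0.12 in committed oligodendrocyte precursor-like nuclei. Kcna4 (Kv1.4), an A-type channel, was highest in D1 and D2 MSN-like nuclei but not high in eccentric MSN-like nuclei. It averaged 0.979 ± 0.054 in D1 and 0.961 ± 0.061 in D2 MSN-like nuclei, against 0.277 ± 0.10 in cholinergic interneuron-like and 0.254 ± 0.041 in eccentric MSN-like nuclei, a smaller MSN class. The libraries of D1 and D2 MSN-like nuclei overlapped with each other and with no other class, the next highest library being 0.438.

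Silent Kv subunits, which pass no current alone and modify Kv2 channels, numbered 10, of which 6 reached 0.1 in some class. For 5 of the 6 the highest and the second class did not overlap, at ratios of 1.74 to 11.2, and for the other the ratio was 1.01. Over all genes at 0.1 or more these classes did not overlap for 24.4%. Kcns3 (Kv9.3) was highest in GABAergic interneuron-like nuclei, at 0.383 ± 0.11 (lowest 0.25, median 0.372, highest 0.587). That was 11.2 times the level in astrocyte-like nuclei, the second class, at 0.0343 ± 0.016. Kcng3 averaged 0.640 ± 0.12 in cholinergic interneuron-like nuclei (lowest 0.488, median 0.602, highest 0.800), 2.76 times its level in D1 MSN-like nuclei. No library of another class reached the lowest of the cholinergic libraries. Kcng1 was highest in D1 MSN-like nuclei, at 0.299 ± 0.048, against 0.126 ± 0.040 in glutamatergic neuron-like and 0.115 ± 0.026 in D2 MSN-like nuclei. Kcnb2 (Kv2.2), a pore-forming partner of these subunits, had overlapping levels in cholinergic (4.94 ± 0.72), glutamatergic (4.39 ± 0.78) and GABAergic (4.09 ± 0.71) classes.

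Of the Kv3 channels, which close fast and allow high firing rates, Kcnc1 and Kcnc2 were highest in GABAergic interneuron-like nuclei. Kcnc1 (Kv3.1) averaged 2.17 ± 0.26 there (lowest 1.69, median 2.24, highest 2.37) and 0.585 ± 0.078 in glutamatergic neuron-like nuclei. Kcnc2 (Kv3.2) averaged 11.1 ± 2.0 (lowest 8.54, median 11.1, highest 14.3). In cholinergic interneuron-like nuclei Kcnc2 ranged from 0.625 to 9.87 over libraries, with 34.1% of nuclei above 0 (mean over libraries) against 9.67% in D1 MSN-like nuclei, so that class was uneven.

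Kv4 channels carry an A-type current. Kcnd2 (Kv4.2) was high in several classes at once, at 37.2 ± 5.5 in eccentric MSN-like, 34.8 ± 2.1 in oligodendrocyte precursor (OPC)-like, 34.2 ± 1.6 in D1 and 32.2 ± 1.0 in D2 MSN-like nuclei, whose libraries overlapped. Cholinergic interneuron-like nuclei were next, at 12.5 ± 2.2. Microglia-like nuclei stood at 6.09 ± 0.86 with 100% of nuclei above 0. The values are depth-corrected, and the part of transcripts from other nuclei in this level was not tested. Kcnip proteins bind Kv4 channels and speed their trafficking. Kcnip2 was highest in D1 (1.50 ± 0.13) and D2 (1.35 ± 0.087) MSN-like nuclei. Its lowest level of the 17 classes was in cholinergic interneuron-like nuclei, at 0.0684 ± 0.044. Kcnip1 was highest in GABAergic interneuron-like nuclei, at 4.84 ± 0.60 (lowest 4.28, median 4.69, highest 5.83), 3.88 times the OPC-like level. Kcnip3 was highest in OPC-like nuclei, at 2.34 ± 0.60, with library values from 1.32 to 2.85 that overlapped those of glutamatergic neuron-like nuclei. Kcnip4 was highest in eccentric MSN-like nuclei at 44.1 ± 6.4 and nearly as high in glutamatergic neuron-like nuclei at 42.4 ± 3.7. Among the beta subunits of Kv1 channels, Kcnab1 was highest in D2 MSN-like nuclei at 12.6 ± 0.98, overlapping D1 MSN-like nuclei at 11.7 ± 0.78. Compared within libraries, Kcnab1 was higher in D2 in every library.

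Kv7 channels carry the M-current, which acetylcholine suppresses. Kcnq5 was highest in D1 MSN-like nuclei at 22.0 ± 1.5 (lowest 20.3, median 21.9, highest 24.1), followed by D2 MSN-like nuclei at 17.5 ± 2.1, whose highest library (20.9) overlapped. Compared within libraries, Kcnq5 was higher in D1 than in D2 in all 6. It was lowest in cholinergic interneuron-like nuclei, at 0.936 ± 0.62. Kcnq3 spread more evenly, with 7.21 ± 0.30 in D1 MSN-like, 7.06 ± 1.2 in oligodendrocyte-like, 6.93 ± 0.28 in D2 MSN-like and 6.37 ± 0.43 in committed oligodendrocyte precursor-like nuclei. Outside neurons Kcnq1, best known from heart and epithelia, was highest in endothelial-like nuclei at 0.204 ± 0.064 (lowest 0.135, highest 0.310), 3.17 times the second class.

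Of the Kv10 to Kv12 channels, the family of the heart channel hERG, Kcnh7 was highest in glutamatergic neuron-like nuclei, at 14.1 ± 2.8 (lowest 11.1, median 13.4, highest 18.8). The second class, GABAergic interneuron-like nuclei, stood at 4.87 ± 1.1 and did not overlap. Kcnh8 was highest in OPC-like nuclei at 1.86 ± 0.44 (lowest 1.2, median 1.87, highest 2.41), 3.42 times the second class. Kcnh5 had overlapping libraries in eccentric MSN-like (2.14 ± 0.55) and glutamatergic neuron-like nuclei (1.62 ± 0.38).

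Large-conductance (BK) channels open with both voltage and calcium. Their pore gene Kcnma1 was highest in glutamatergic neuron-like nuclei, 11.6 ± 0.87, followed by 5.78 ± 0.26 in D1, 5.54 ± 0.28 in GABAergic interneuron-like and 5.41 ± 0.29 in D2 MSN-like nuclei, which overlapped among themselves. Kcnmb2, which makes BK channels inactivate, averaged 4.34 ± 1.1 in GABAergic interneuron-like nuclei (lowest 2.76, median 4.49, highest 5.89), 8.15 times the 0.533 ± 0.18 of neuroblast-like nuclei, the second of the named classes. Unnamed cluster 27 was higher, with Kcnmb2 at 9.97 ± 2.7. Kcnmb1, the smooth muscle subunit, was highest in ependymal-like nuclei at 0.444 ± 0.16 (lowest 0.256, median 0.429, highest 0.645), against 0.0979 ± 0.054 in mural-like nuclei. Kcnmb1 lies inside Kcnip1 on the opposite strand (chr11:33963013-33973641 within chr11:33629339-33993152), and Kcnip1 stood at 0.165 ± 0.076 in ependymal-like and 0.0877 ± 0.098 in mural-like nuclei. The part of Kcnip1 reads in the Kcnmb1 level was not tested. Small-conductance Kcnn2 was highest of the named classes in astrocyte-like nuclei at 2.47 ± 0.13 (lowest 2.32), just above GABAergic interneuron-like nuclei at 2.17 ± 0.099 (highest 2.29), and stood at 1.19 ± 0.17 in D2 and 0.902 ± 0.14 in D1 MSN-like nuclei. Kcnn2 was higher still in the GABAergic interneuron-like cluster led by Vip (5.03 ± 0.65) and in unnamed cluster 27 (5.72 ± 1.5). Intermediate-conductance Kcnn4 was highest in ependymal-like nuclei, at 0.141 ± 0.046 (lowest 0.0625, highest 0.200), 8.16 times endothelial-like nuclei. With 10 to 48 ependymal-like nuclei per library, this level rests on few nuclei.

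The sodium-activated channel gene Kcnt2 had the clearest cholinergic pattern of the members. It averaged 17.6 ± 3.0 in cholinergic interneuron-like nuclei (lowest 14.2, median 17.8, highest 20.9), 4.25 times glutamatergic neuron-like nuclei at 4.16 ± 0.71. Fibroblast-like nuclei followed at 2.71 ± 1.3. All 6 cholinergic libraries lay above every library of the other classes. Kcnj12 (Kir2.2) was also highest in this class, at 0.522 ± 0.10 (lowest 0.344, median 0.559, highest 0.605), 2.20 times mural-like nuclei, while Kcnj2 and Kcnj4 were low there.

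Inward rectifiers divided by class. Kcnj2 (Kir2.1) and Kcnj4 (Kir2.3), which hold the resting potential of MSNs, were highest in D1 MSN-like nuclei at 0.218 ± 0.032 and 0.412 ± 0.030. D2 MSN-like nuclei overlapped them at 0.201 ± 0.039 for Kcnj2 and 0.400 ± 0.041 for Kcnj4, and cholinergic interneuron-like nuclei stood at 0.0378 ± 0.034 and 0.0606 ± 0.049. Compared within libraries, Kcnj2 was higher in D1 than in D2 in 6 and Kcnj4 in 5. Kcnj6 (GIRK2), a channel opened by G proteins, was highest in glutamatergic neuron-like nuclei, at 2.78 ± 0.26 (lowest 2.52, median 2.69, highest 3.20), against 1.06 ± 0.17 in eccentric MSN-like nuclei. In glia and epithelia, Kcnj10 (Kir4.1) was highest in ependymal-like nuclei at 1.06 ± 0.25 and overlapped astrocyte-like nuclei at 0.821 ± 0.18, followed by oligodendrocyte-like nuclei at 0.697 ± 0.058 and committed oligodendrocyte precursor-like nuclei at 0.632 ± 0.15. Its partner Kcnj16 (Kir5.1) was highest in ependymal-like nuclei at 0.494 ± 0.20, then OPC-like at 0.259 ± 0.056 and astrocyte-like nuclei at 0.137 ± 0.019. Kcnj8 (Kir6.1), the pore of the vascular ATP-sensitive channel, averaged 0.938 ± 0.41 in mural-like nuclei (lowest 0.413, median 1.06, highest 1.4), 4.69 times endothelial-like nuclei. Abcc9, the regulatory subunit of that channel, was at 3.07 ± 0.55 in mural-like nuclei and at 0.0135 or less in the 6 neuronal classes compared.

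Kcnj13 (Kir7.1) was highest in choroid plexus-like nuclei, at 1.66 and 2.65 in the wild type libraries with such nuclei and 1.84 in the heterozygous one. The mean of these 3 libraries, 2.05, was 10.5 times that of GABAergic interneuron-like nuclei, the second class, at 0.195 ± 0.049. Kcne2, the partner subunit whose promoters are printed above, was at 0.442 ± 0.089 in the same 3 libraries (lowest 0.364, median 0.422, highest 0.539), 25.5 times the ependymal-like level. That was the largest ratio between a highest and a second class among the 68 members. Kcnq1ot1 followed at 9.56 ± 0.58, 2.17 times GABAergic interneuron-like nuclei. Kcnh1 was also highest there, at 2.83 ± 0.43, with libraries that overlapped glutamatergic neuron-like nuclei at 2.15.

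Of the 13 leak channel (Kcnk) genes, 9 had a level of 0.1 or more in some class. Of these, 5 were highest in a neuronal class, 3 in a glial class and 1 in neuroblast-like nuclei, with no shares of all genes computed for this split. The highest class lay apart from the second for 3 of the 9, beside 24.4% of all genes at that level. Of the 3, 2 were highest in glial classes and 1 in cholinergic interneuron-like nuclei. Kcnk6 (TWIK2) was highest in microglia-like nuclei at 0.258 ± 0.046 (lowest 0.223, median 0.242, highest 0.350), 9.72 times endothelial-like nuclei. Kcnk13 (THIK1), known from microglia, was higher in oligodendrocyte-like nuclei, at 1.29 ± 0.087 (lowest 1.13, median 1.32, highest 1.38), than in microglia-like nuclei, at 0.988 ± 0.11 (lowest 0.884, median 0.947, highest 1.13); the libraries of the classes did not overlap, by a narrow margin. The unnamed cluster led by Hapln2 and Klk6 was higher, with Kcnk13 at 1.73 ± 0.14. D1 MSN-like nuclei came next at 0.419 ± 0.087, and astrocyte-like nuclei were lowest at 0.0267. Kcnk1 (TWIK1) was highest in astrocyte-like nuclei at 0.813 ± 0.12, overlapping choroid plexus-like nuclei at 0.627 ± 0.21. Kcnk10 (TREK2) had equal levels in neuroblast-like (1.25 ± 0.24) and OPC-like nuclei (1.25 ± 0.21). Kcnk2 (TREK1), a channel opened by stretch and lipids, was highest in D2 MSN-like nuclei at 4.1 ± 0.61 and overlapped fibroblast-like nuclei at 3.49 ± 1.2. Kcnk4 (TRAAK) was highest in glutamatergic neuron-like nuclei at 0.148 ± 0.053, with libraries that overlapped cholinergic interneuron-like nuclei at 0.0355 ± 0.026. Kcnrg, a regulator of Kv assembly and no channel itself, was highest in microglia-like nuclei at 0.621 ± 0.093, 1.80 times neuroblast-like nuclei. It lies inside Dleu2 on the opposite strand, and Dleu2 reached 7.02 in microglia-like nuclei. The use of strand in the counting is not given, and the part of Dleu2 reads in the Kcnrg level was not tested.

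D1 and D2 MSN-like nuclei differed in level for part of the potassium channel genes. Of 58 members tested in both classes, 28 were higher in D1 in all 6 libraries, 10 were higher in D2 in all 6 and 20 went either way. Those shares are 48.3% and 17.2%, beside 25.1% and 7.53% of the 12685 genes tested in both. Median genes per nucleus were also higher in D1 than in D2 MSN-like nuclei in all 6 libraries, at 3280 to 3500 against 3060 to 3383, and the part of this in the counts was not tested. Kcnk13 differed most, at 0.419 ± 0.087 in D1 and 0.0671 ± 0.013 in D2 MSN-like nuclei, a difference of 2.47 on the log2(level + 0.01) scale. The lowest D1 library (0.310) lay far above the highest D2 library (0.0833). Kcng1 was higher in D1 by 1.32 and Kcnb2 by 0.97 on the same scale, with Kcnb2 at 2.93 in D1 and 1.49 in D2 MSN-like nuclei. Kcnd3 (Kv4.3) went the other way, at 0.414 in D1 and 0.793 in D2 MSN-like nuclei, a difference of -0.93. Kcnd2, the other Kv4 gene named here, differed far less, at 34.2 and 32.2.

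**Figure D2:**
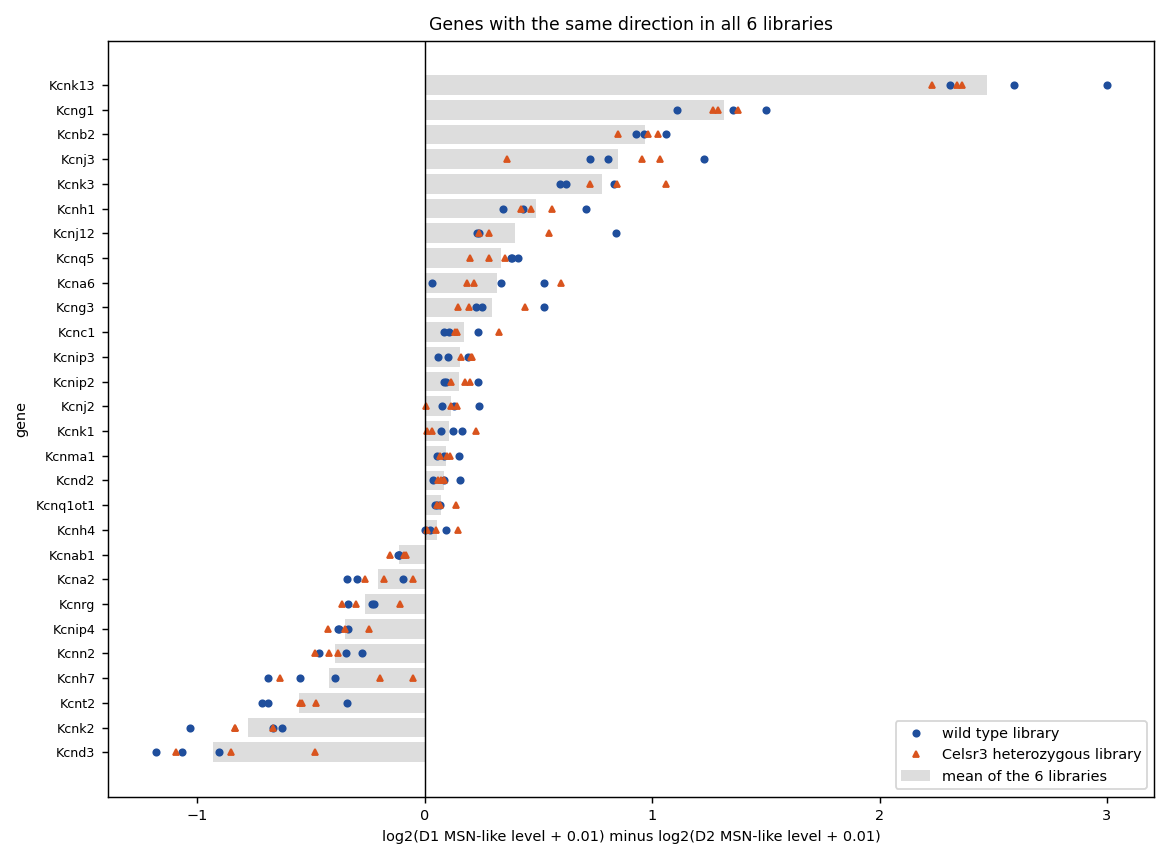
Difference in level between D1 and D2 MSN-like nuclei, as log2(level + 0.01) in D1 minus D2, for 28 members named in the text, of those with the same direction in all 6 libraries; points are libraries (circles wild type, triangles Celsr3 heterozygous) and grey bars their mean. Kcnk13, Kcng1 and Kcnb2 extend furthest toward D1 and Kcnd3 furthest toward D2.

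Levels also differed between the clusters within a class. In the 5 GABAergic interneuron-like clusters, 57 members reached 0.1 in some cluster, and for 43 of them the highest and the lowest cluster did not overlap over libraries, with a median ratio of 3.48. That is 75.4%, beside 30.6% of all genes at that level, whose median ratio was 1.67. In the 3 D1 MSN-like clusters this held for 28 of 45 members (62.2%, beside 22.9% of all genes), and in the 3 D2 MSN-like clusters for 24 of 46 (52.2%, beside 20%). Median ratios there were 1.37 and 1.39 for members, beside 1.22 and 1.21 for all genes. In the 4 glutamatergic neuron-like clusters it held for 35 of 61 (57.4%, beside 22.5%), and in the 3 astrocyte-like clusters for 16 of 37 (43.2%, beside 21.5%). Median ratios in these were 2.17 and 1.72 for members, beside 1.44 and 1.30 for all genes. Oligodendrocyte-like clusters are not given, since no share over all genes was computed for them. Levels of members and of all genes were not matched, and the number of clusters differs between classes, so the classes are not compared with each other. The genes named in the next paragraphs on clusters were chosen after their values were seen, other than Kcnc1, Kcnc2, Kcns3, Kcnmb2 and Kcnip1.

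Kcnc1 and Kcnc2 did not follow each other across the GABAergic interneuron-like clusters. Cluster 25 had Kcnc2, Kcnmb2 and Kcns3 among its 10 leading genes, which were picked from all genes, so that its high levels of these 3 describe the cluster and are no separate result. They were 25.5 ± 4.9 for Kcnc2 (lowest 16.8, highest 30.5), 8.34 ± 1.3 for Kcnmb2 and 0.763 ± 0.18 for Kcns3. Of the 474 nuclei of cluster 25, 41.6% were from heterozygous library 1 and 3.59% from heterozygous library 2. Of the 236 nuclei of cluster 34, 32.6% were from heterozygous library 1 and 4.66% from wild type library 2. The part of this uneven mix in the class levels was not tested. The Pvalb/Pthlh interneuron-like cluster 24 had Kcnc2 at 2.64 ± 0.56 (lowest 2.05, highest 3.53), lower than the other 4 clusters in all libraries. Yet cluster 24 had Kcnc1 at 2.43 ± 0.14, close to 2.79 ± 0.50 in cluster 25, and the highest Kcnip1 at 7.2 ± 0.61. The Sst/Npy interneuron-like cluster 31 had the lowest Kcnc1, 0.694 ± 0.12, beside a Kcnc2 of 9.13 ± 1.1. Cluster 34, led by Vip, had Kcnq5 at 13.4 ± 1.3 and Kcnt2 at 4.39 ± 0.96, each above every library of the other 4 clusters. Kcnmb1 was at 0.122 ± 0.037 in cluster 24 and at 0.00595 or less in the other 4, and Kcnip1, which overlaps it on the opposite strand, was also highest in cluster 24.

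**Figure D3:**
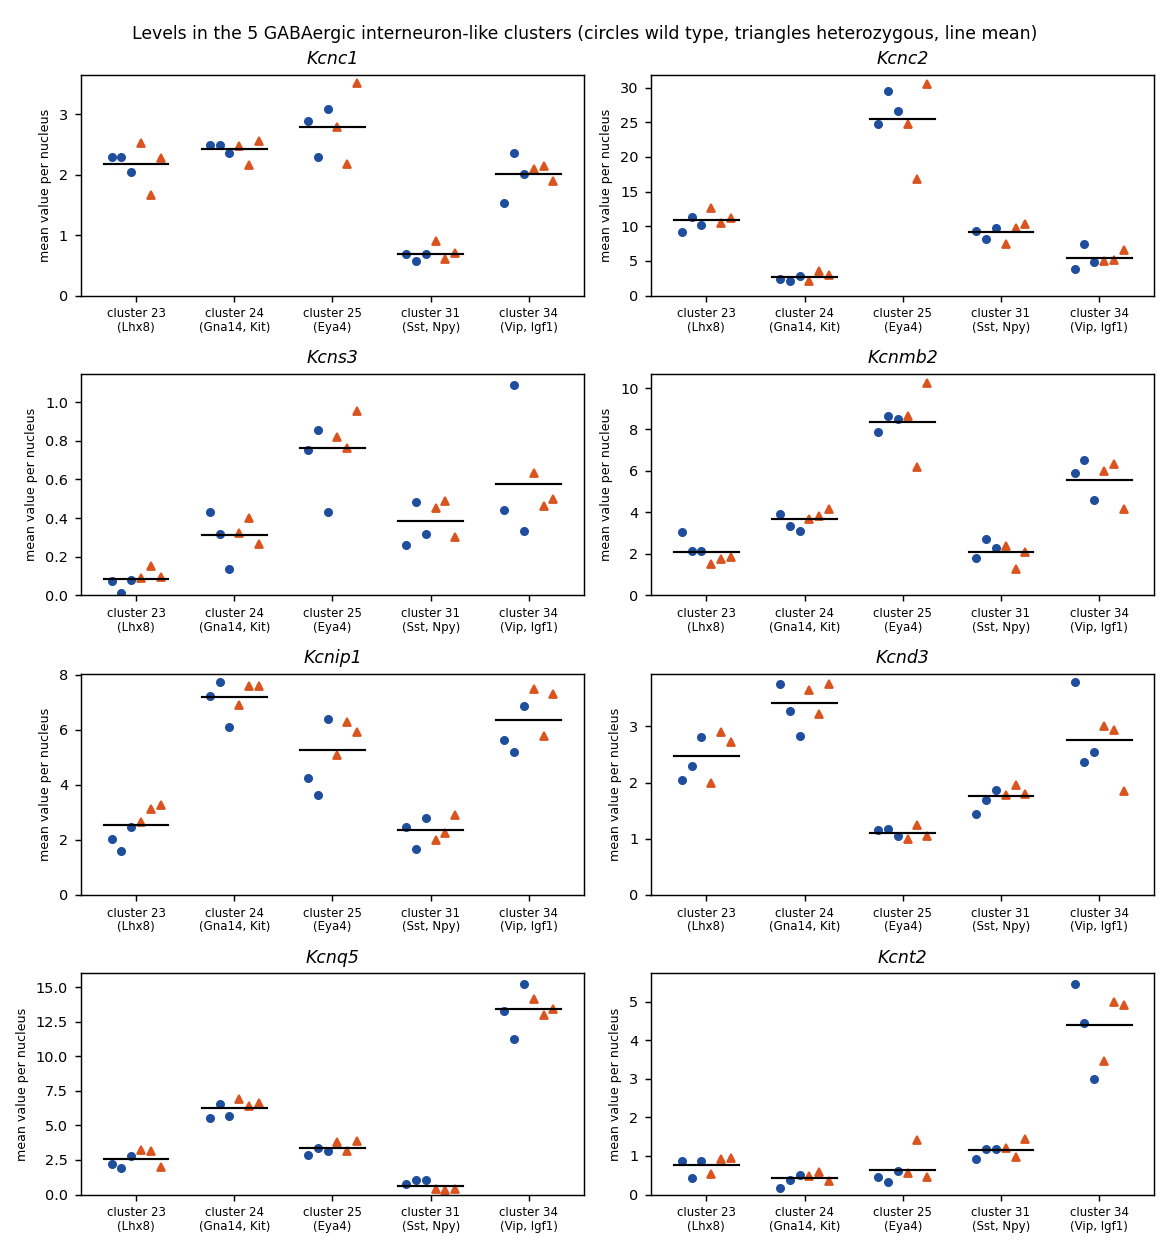
Mean value per nucleus of 8 members in the 5 GABAergic interneuron-like clusters; circles are wild type and triangles Celsr3 heterozygous libraries, and lines are means over 6 libraries. Kcnc2, Kcnmb2 and Kcns3 have their highest means in cluster 25, Kcnc1 has its lowest in cluster 31, and Kcnq5 and Kcnt2 are highest in cluster 34.

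Within MSNs, cluster 13 of the D1 class and cluster 10 of the D2 class differed from the other clusters of their class in the same direction for the 4 genes given here. Kcnt2 was 0.705 ± 0.098 in cluster 13 and 0.0925 to 0.349 in the other D1 clusters, and 1.22 ± 0.073 in cluster 10 against 0.148 to 0.344 in the other D2 clusters. Kcnq3 was lower, at 3.03 ± 0.32 against 7.31 to 8.18 in D1 and at 3.20 ± 0.30 against 6.91 to 7.97 in D2. Kcnh7 and Kcnip3 were lower in these clusters as well, Kcnh7 at 0.628 ± 0.17 in cluster 13 and 0.666 ± 0.18 in cluster 10, against 1.41 or more in the others. Among astrocyte-like clusters, cluster 9 had Kcnd2 at 25.6 ± 5.4 against 6.12 ± 0.92 and 4.59 ± 0.72 in the other clusters. Cluster 9 also had Kcns3 at 0.132 ± 0.055 against 0.00477 or less, and Kcnk10 at 0.0762 ± 0.011 against 0.372 ± 0.042 or more.

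The genotype comparison asked which members differed between Celsr3 heterozygous and wild type libraries. No potassium channel gene passed an adjusted p of 0.05 in any of 18 populations (all nuclei, 14 classes and 3 clusters with at least 20 nuclei in every library) by limma, with p-values adjusted over all genes tested. Of the 92 members, 70 passed the filter on low values in at least 1 population and 22 in none. Few genes of any kind passed. The count was 0 of 14394 (0.0%) over all nuclei, 4 of 13435 (0.0298%) in D1 and 2 of 12737 (0.0157%) in D2 MSN-like nuclei, 3 of 4154 (0.0722%) in Pvalb/Pthlh and 1 of 1926 (0.0519%) in Sst/Npy interneuron-like nuclei, and 0 in the other populations. At an unadjusted p under 0.05, 3 of 67 members were higher and 1 was lower over all nuclei, where 6.21% of all genes were higher and 3.67% lower. Among D1 MSN-like nuclei 4 of 60 were higher and 1 lower, beside 5.53% and 4.26% of all genes. In D2 MSN-like nuclei 7 of 58 were higher and 1 lower, beside 4.09% and 4.49% of all genes, so the share that was higher lay above the background there. In the other neuronal classes and clusters the members at that p numbered 2 of 51 in GABAergic interneuron-like (6.38% of all genes), 2 of 63 in glutamatergic neuron-like (5.25%), 2 of 40 in eccentric MSN-like (5.13%), 0 of 14 in cholinergic (5.32%), 1 of 28 in Pvalb/Pthlh (6.52%) and 1 of 17 in Sst/Npy interneuron-like nuclei (6.02%), and 1 of 24 in neuroblast-like nuclei (3.89%). Among glia they were 3 of 45 in astrocyte-like (6.32%), 3 of 43 in oligodendrocyte-like (5.25%), 1 of 25 in Hapln2/Klk6 (4.8%), 1 of 38 in microglia-like (5.63%), 3 of 31 in OPC-like (4.22%) and, for committed oligodendrocyte precursor-like nuclei, 1 of 12 (5.91%). Vascular classes had 1 of 22 in endothelial-like (3.15%) and 2 of 12 in mural-like nuclei (5.22%). These shares rest on 0 to 3 members each.

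Median changes were small and depended on scaling, for members and for all genes. The median change was 0.12 for members and 0.07 for all genes over all nuclei, 0.08 and 0.06 in D1, and 0.11 and 0.04 in D2 MSN-like nuclei, all as log2(level + 0.01). With size-factor scaling the medians of the members were 0.06, 0.03 and 0.07, and those of all genes 0.0052, 0.0050 and 0.0045. The members higher in heterozygous libraries went from 57 to 48 of 67 over all nuclei, from 46 to 38 of 60 in the D1 class and from 43 to 39 of 58 in the D2 class. Over all genes the share that was higher went from 69.1% to 51.8%, from 64.7% to 51.6% and from 60.3% to 51.3%. Among all genes with an unadjusted p under 0.05, the same scaling moved the share that was higher from 62.9% to 27.1% over all nuclei, from 56.5% to 33.3% in the D1 class and from 47.7% to 31.7% in the D2 class. It moved from 47.4% to 34.7% in astrocyte-like, 35.5% to 24.4% in glutamatergic neuron-like, 56.3% to 35.3% in OPC-like and 62.9% to 43.8% in mural-like nuclei. Median genes per nucleus were 2435 to 2906 in wild type and 2840 to 3000 in heterozygous libraries. With nuclei matched on genes per nucleus no member was called in any population where that could be fitted. Groups did not overlap for 8 of 67 members over all nuclei (19.3% of all genes), 7 of 60 in D1 MSN-like nuclei (16.3%) and 13 of 58 in D2 MSN-like nuclei (14.6%). Of those 13, 12 were higher, where 9.12% of all genes were higher without overlap.

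**Figure D4:**
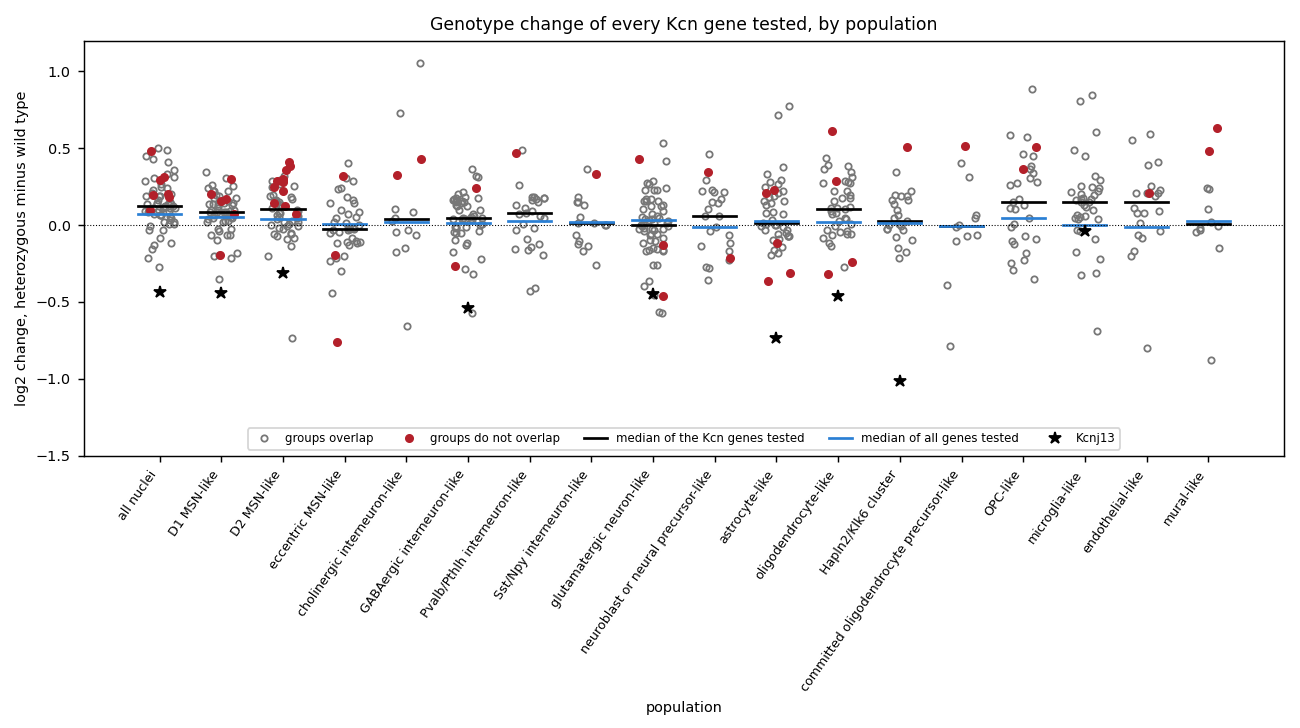
Log2 change of every member tested (heterozygous minus wild type, on the log2(level + 0.01) scale) in 18 populations; filled points are members whose groups do not overlap, stars are Kcnj13, and bars are medians of the members (black) and of all genes tested (blue). Most points lie between -0.5 and 0.5, and the stars lie below 0 in all 9 populations that show one.

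Kcnj13 was the member whose groups did not overlap in the largest number of the classes and clusters tested. In astrocyte-like nuclei it stood at 0.0986, 0.111 and 0.0941 in the wild type and 0.0611, 0.0584 and 0.0515 in the heterozygous libraries. The groups were apart, with every heterozygous library below the lowest wild type value. The change was -0.73 ± 0.15 (SE), which did not pass (limma adjusted p = 0.381). In the cluster led by Hapln2 and Klk6, of the oligodendrocyte lineage by those genes and unnamed, it stood at 0.146, 0.178 and 0.145 against 0.0805, 0.0670 and 0.0686. Here too the groups did not overlap, with a change of -1.02 ± 0.22 (limma adjusted p = 0.364). In D1 MSN-like nuclei it was 0.218, 0.227 and 0.174 against 0.137, 0.141 and 0.170, with no overlap and a change of -0.44 (limma adjusted p = 0.343). In D2 MSN-like nuclei it was 0.190, 0.200 and 0.170 against 0.133, 0.146 and 0.168, again apart by a narrow gap (change -0.31, limma adjusted p = 0.540).

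Across the 8 classes and clusters in which Kcnj13 was tested it was lower in all 8, and the groups did not overlap in 7, the exception being microglia-like nuclei (change -0.04). In GABAergic interneuron-like nuclei the change was -0.54 (-0.36 without heterozygous library 2), in oligodendrocyte-like nuclei -0.46 and in glutamatergic neuron-like nuclei -0.45. The gap was narrow in D1 and D2 MSN-like nuclei. It was also narrow in oligodendrocyte-like (lowest wild type 0.102, highest heterozygous 0.0998) and glutamatergic neuron-like nuclei (0.168 and 0.165). Groups did not overlap for 6 of 45 members and 12.1% of all genes in astrocyte-like, 2 of 25 and 10.2% in Hapln2/Klk6, 3 of 51 and 11.9% in GABAergic interneuron-like, 5 of 43 and 10.5% in oligodendrocyte-like, 4 of 63 and 11.4% in glutamatergic neuron-like, and 0 of 38 and 10.4% in microglia-like nuclei. The classes come from the same 6 libraries, so these are not 8 separate observations. The share of all genes with groups apart in as many classes was not computed, and Kcnj13 is the highest of the members in this count. Kcnrg was lower in all 9 classes and clusters where it was tested (changes from -0.57 to -0.03), and its groups did not overlap in 2 of them. Outside these, Kcnj13 did not pass the filter, and in OPC-like nuclei its highest library was heterozygous (0.214, from 28 nuclei).

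Neighbouring and choroid plexus transcripts were set beside Kcnj13. The gene lies inside Gigyf2 on the opposite strand (chr1:87386363-87394729 within chr1:87326998-87450796), and the part of Gigyf2 reads in the Kcnj13 level was not tested. Gigyf2 stood at 0.845, 0.901 and 0.883 in wild type and 0.842, 0.970 and 0.953 in heterozygous libraries over all nuclei, which overlap. In astrocyte-like nuclei Gigyf2 was 0.762, 0.815 and 0.814 against 0.805, 0.895 and 0.825. Ttr in astrocyte-like nuclei was 1.84, 1.76 and 0.184 in wild type and 0.0903, 0.0824 and 2.80 in heterozygous libraries. Wild type libraries 1 and 2 and heterozygous library 3, the Ttr-high ones, also hold nearly all choroid plexus-like nuclei. Over all nuclei Kcnj13 was 0.173, 0.194 and 0.147 in wild type and 0.123, 0.108 and 0.139 in heterozygous libraries. Over all nuclei and in the D1 and D2 MSN-like classes, Kcnj13 was lowest of the wild type in library 3 and highest of the heterozygous in library 3, as Ttr was. Both held in these 3 of the 9 populations compared. Within the same 3, wild type library 1 was above wild type library 2 in Ttr but below it in Kcnj13. Between libraries alike in Ttr, wild type library 3 lay above heterozygous libraries 1 and 2 over all nuclei, and wild type libraries 1 and 2 lay above heterozygous library 3. In astrocyte-like nuclei heterozygous library 3, the highest in Ttr, had the lowest Kcnj13. The summed level of the 7 choroid plexus markers other than Htr2c ranged from 0.235 to 1.90 in wild type and from 0.109 to 2.97 in heterozygous astrocyte-like nuclei, and Prlr was the 1 marker at 0 in a library. The part of choroid plexus transcripts in the Kcnj13 difference was not tested.

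**Figure D5:**
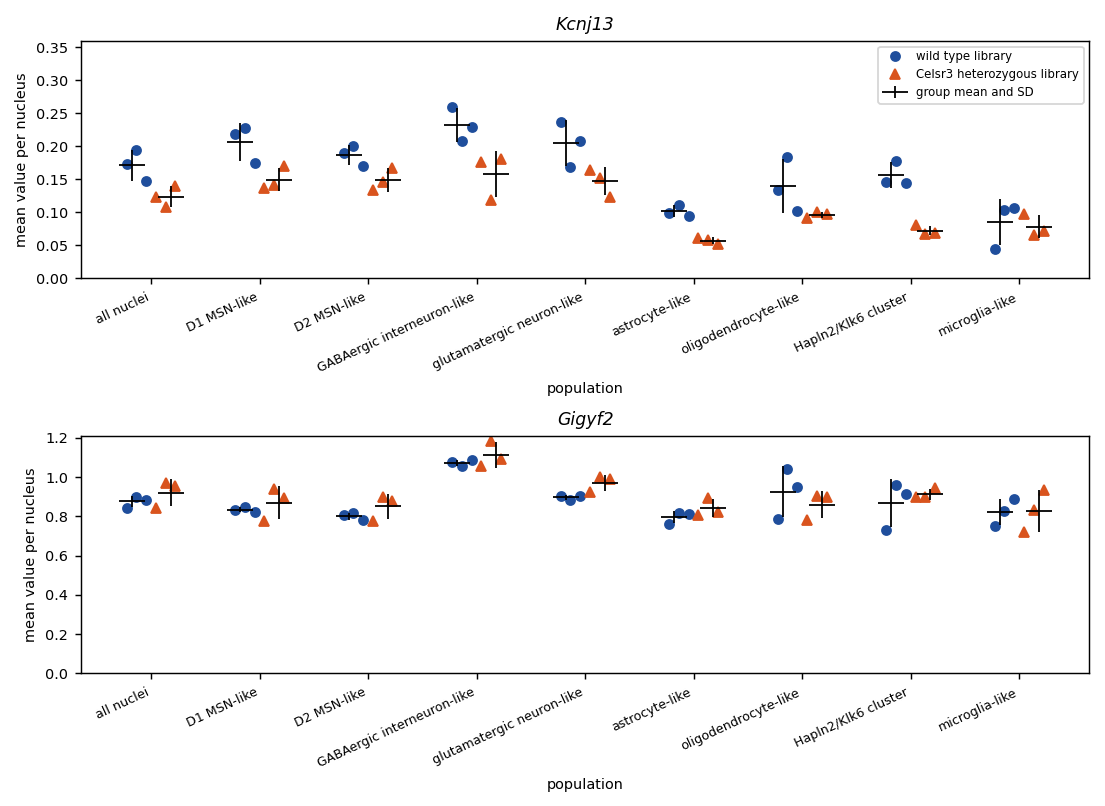
Mean value per nucleus of Kcnj13 (top) and of its host gene Gigyf2 (bottom) in all nuclei and the 8 populations where Kcnj13 was tested; circles are wild type and triangles Celsr3 heterozygous libraries, with the group mean and SD. Kcnj13 groups are apart except in microglia-like nuclei, and Gigyf2 groups overlap except in glutamatergic neuron-like nuclei, where heterozygous libraries are higher.

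Kcnq5 had the smallest adjusted p among members in D2 MSN-like nuclei. It stood at 16.2, 15.5 and 15.7 in the wild type and 18.7, 20.9 and 18.1 in the heterozygous libraries. Every heterozygous library was higher, and the change of 0.28 ± 0.07 (SE) did not pass (limma adjusted p = 0.287). With limma's array weights it was 0.34 and passed (adjusted p = 0.0409), and over its alternatives the adjusted p ran from 0.0409 to 0.689. In D1 MSN-like nuclei Kcnq5 was 21.0, 20.3 and 20.9 against 22.7, 24.1 and 23.1, also without overlap (change 0.17, limma adjusted p = 0.424). The difference of the change between D1 and D2 MSN-like nuclei was -0.11 (limma adjusted p = 0.814), and -0.076 without heterozygous library 2.

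Sst/Npy interneuron-like nuclei went the other way for Kcnq5, a gene and class singled out after the values were seen. The levels were 0.739, 1.08 and 1.02 in the wild type and 0.396, 0.321 and 0.367 in the heterozygous libraries. The groups did not overlap, as for 11.1% of the genes tested there, and rested on 23 to 53 nuclei per library. The gene missed the filter, with a summed value of 28.33 per library against a limit of 30, and was fitted only when the filter was dropped (change -1.35, limma adjusted p = 0.00119). Over 15 classes and clusters, which leave out the Pvalb/Pthlh and Sst/Npy interneuron-like clusters, Kcnq5 was higher in 13 and lower in 2.

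Other members with small p-values were mostly higher in heterozygous libraries and did not pass. In D1 MSN-like nuclei Kcnh3 was 0.322, 0.280 and 0.315 against 0.336, 0.401 and 0.398, without overlap (change 0.30, limma adjusted p = 0.406). Kcnh4, a related channel, was 0.539, 0.496 and 0.485 against 0.556, 0.587 and 0.608 (change 0.20, limma adjusted p = 0.458). In D2 MSN-like nuclei Kcnk13 was 0.0614, 0.0546 and 0.0525 against 0.0687, 0.0817 and 0.0833 (change 0.41, limma adjusted p = 0.464, and 0.15 in nuclei matched on genes per nucleus). In all of these the heterozygous libraries lay above the wild type ones. Kcng3 (0.30) and Kcnh5 (0.29) were higher in D2 MSN-like nuclei in the same way. Over all nuclei Kcnj11, the pore of the neuronal ATP-sensitive channel, was 0.0326, 0.0332 and 0.0358 against 0.0480, 0.0425 and 0.0432, without overlap (change 0.31, limma adjusted p = 0.455). Kcng2 had a change of 0.48 and Kcnk3 of 0.29 over all nuclei (limma adjusted p = 0.486 and 0.489). With equal weight for each cluster these were 0.21 and 0.15 (limma adjusted p = 0.736 and 0.713). The mix of nuclei differed between libraries: of unnamed cluster 6, led by Sim1, 42.3% of 2285 nuclei were from heterozygous library 2, 27.9% from library 3 and 2.93% from library 1, against 3.28% to 13.3% from each wild type library, and 83.5% of the 188 nuclei of unnamed cluster 36 were from heterozygous library 3. Kcng2 stood at 0.141 ± 0.056 and Kcnk3 at 0.116 ± 0.026 in cluster 6, above 0.0240 and 0.0627 over all nuclei. The part of this mix in the changes was not tested beyond the equal weights, which leave out clusters with under 20 nuclei in a library, cluster 36 among them.

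In the remaining classes the member with the smallest p reached an adjusted p of 0.675 or more. Kcnj3 (GIRK1) was higher by 0.61 in oligodendrocyte-like nuclei, at 0.0808, 0.0628 and 0.109 against 0.111, 0.146 and 0.139, without overlap. Kcnk10 was lower in eccentric MSN-like nuclei, at 0.225, 0.207 and 0.364 against 0.0887, 0.177 and 0.202 (change -0.76, limma adjusted p = 0.945, and -0.43 without heterozygous library 1). In mural-like nuclei Kcnh7 was higher by 0.48, and Kcnj8 was 0.917, 1.2 and 1.4 against 0.475, 0.413 and 1.23, which overlap (change -0.88, limma adjusted p = 0.884). Heterozygous library 3 was among the high values for Kcnj8, unlike the other heterozygous libraries. Kcnip4 was higher by 0.32 in microglia-like, 0.52 in committed oligodendrocyte precursor-like and 0.56 in endothelial-like nuclei, and by 0.16, 0.26 and 0.31 without wild type library 1. Kcnc2 was higher by 0.89 in OPC-like nuclei, at 0.217, 0.208 and 0.457 against 0.500, 0.449 and 0.613, with overlap and with 28 nuclei in heterozygous library 1. Changes of 0.35 for Kcnd2 in neuroblast-like, 0.43 for Kcnq3 in cholinergic and 0.33 for Kcnb2 in Sst/Npy interneuron-like nuclei did not pass either. For Kcnd2 the change was 0.23 without wild type library 1 and 0.15 in nuclei matched on genes per nucleus, and for Kcnq3 it was 0.28 without heterozygous library 1.

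No difference of the genotype change between D1 and D2 MSN-like nuclei passed for any of 58 members, with 5 of 12685 genes (0.0394%) called in that test by limma. At an unadjusted p under 0.05 the members numbered 6 of 58, beside 5.0% of all genes. Kcnc2 was among them with a difference of 0.75 (limma adjusted p = 0.894), and 1 library stood apart: in D2 MSN-like nuclei it was 0.436 in wild type library 1 and 0.0886 to 0.171 in the other 5. Without that library the difference was 0.25 (limma adjusted p = 0.913). In the D1 class Kcnc2 lay between 0.0869 and 0.139 in all 6.

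Channel partners and related channels outside the Kcn symbols, 21 genes that include Dpp6, Dpp10, Abcc8, Abcc9, Cntnap2, Lgi1 and Ank3, gave 0 calls by limma in every population. Over all nuclei 12 of 17 tested were higher and 5 lower, with a median change of 0.10, beside 69.1% of all genes higher. Of those tested, 11 of 15 in the D1 class (64.7% of all genes) and 11 of 14 in the D2 class (60.3%) were higher. With size-factor scaling these counts were 10 of 17, 9 of 15 and 9 of 14, beside 51.8%, 51.6% and 51.3% of all genes. By class, Dpp10 and Dpp6, which bind Kv4 channels, were highest in different classes: Dpp10 at 54.1 ± 12 in glutamatergic neuron-like nuclei, where Dpp6 was at 2.25 ± 0.89, and Dpp6 at 14.9 ± 1.4 in eccentric MSN-like nuclei. Hcn2, a pacemaker channel, was highest in cholinergic interneuron-like nuclei at 0.655 ± 0.065.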

How the data were processed

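Gene values from 3 wild type and 3 Celsr3 heterozygous single-nucleus libraries were analysed. The authors deposited 1 table of genes by nuclei whose values are a score: whole numbers, with totals per nucleus between 4523 and 10638 (coefficient of variation 10.7%), and with low genes at 2 or 3 and none at 1 in 10.0% of nuclei, so they are depth-corrected and not raw counts, and the depth behind them is unknown. Cell Ranger and Seurat 4.1 are named with mm10 and GRCm38 in the submitters' processing notes. The normalization step, filters and the use of strand are not given in the sources used here. Genes per nucleus ranged from 1284 to 5263.

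Nuclei were clustered on 2000 variable genes, Kcn genes left out, with 30 principal components (scikit-learn 1.9.0, igraph 0.11.9), and likely doublets (score above 0.25, or any nucleus of a cluster in which over 40% scored so) were removed. Of 46 clusters 6 were left out and 7 stayed unnamed (6882 nuclei). Per library and population, log2(mean value + 0.01) was tested with limma 3.58.1 (trend, R 4.3.3), heterozygous minus wild type, for genes with a mean of at least 0.02 and a summed value averaging at least 30 per library, with Benjamini-Hochberg adjustment over all genes tested and a threshold of 0.05. In simulated data for D1 MSN-like nuclei (13435 genes), the test called 73 of 100 genes changed by a log2 of 1, 95 of 100 changed by 2 and 9 of 13235 unchanged genes. Noise was drawn for each gene apart, with no shift shared across a library. Smaller changes and other classes were not simulated. Alternatives were the pseudocount, filter, scaling, array weights, replicate block, leaving out each library, matching on genes per nucleus, cluster mix, doublets and clustering. Levels between classes were not tested.

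Members and lists were chosen with earlier results of these data known. Members were named as those with the smallest unadjusted p (4 in all nuclei and in each MSN class, 1 in every other class), up to 3 with the largest ratio to the other classes in each class, 4 for D1 against D2, and textbook channels of these cells. Results for some of the genes so named are not reported here, and figure labels are limited to genes the text names.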

Additional observations from a re-analysis of the deposited data

How the results depend on the processing

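For 29 named genotype changes under 429 alternatives in all, 428 kept their direction and side of the threshold, 0 reversed, and 1 passed (Kcnq5 in D2 MSN-like nuclei with array weights). Potassium channel genes were called in 3 alternatives: 1 (Kcnq5) in D2 MSN-like nuclei with array weights, 1 (Kcnq5) in Sst/Npy interneuron-like nuclei with no filter, and 1 in the D1 and D2 difference without heterozygous replicate 3 (Kcnh7, chosen after its values were seen, 0.42, limma adjusted p = 0.00477), a count of 0 or 1 over the libraries left out. With all 6 libraries Kcnh7 had 0.25 and limma adjusted p = 0.93, and over the libraries left out it ran from 0.12 without heterozygous library 1 (limma adjusted p = 0.998), with 0.17 without wild type library 1, to the 0.42 above. Of the 429 alternatives, 25 moved a change by over 1.5 times. With a pseudocount of 0.1 the changes were 0.13 for Kcng2, 0.13 for Kcnk3, 0.11 for Kcnj11 and -0.28 for Kcnj13 over all nuclei, -0.57 and -0.36 for Kcnj13 in the Hapln2/Klk6 cluster and astrocyte-like nuclei, 0.34 for Kcnj3 in oligodendrocyte-like and 0.19 for Kcnk13 in D2 MSN-like nuclei. Array weights gave 0.31 for Kcnip4 in endothelial-like nuclei and 0.15 for Kcnk3 over all nuclei, and matching on genes per nucleus gave 0.14 for Kcnk3.

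Counts of all genes called by limma moved more. Array weights gave 417 in D1 and 160 in D2 MSN-like, 2 in oligodendrocyte-like, 1 in glutamatergic neuron-like and 2 in endothelial-like nuclei, where the main counts were 4, 2, 0, 0 and 0. With no filter the counts were 2 in D1 MSN-like, 1 in microglia-like, 2 in eccentric MSN-like, 3 in endothelial-like, 1 in committed oligodendrocyte precursor-like, 1 in mural-like, 7 in Pvalb/Pthlh (main 3) and 9 in Sst/Npy interneuron-like nuclei (main 1), and 0 for the D1 and D2 difference (main 5). In D2 MSN-like nuclei a pseudocount of 0.1 gave 1, size-factor scaling 4, matching on genes per nucleus 7 and an equal mix of clusters 1. The pseudocount of 0.1 gave 1 in glutamatergic neuron-like nuclei. Matching gave 2 in oligodendrocyte-like, 1 in D1 MSN-like and 1 in Pvalb/Pthlh interneuron-like nuclei. Clustering with Kcn genes gave 2 in D1 MSN-like and 0 in Sst/Npy interneuron-like nuclei. Leaving out 1 library gave 1 to 228 genes in D1 and 0 to 127 in D2 MSN-like nuclei, both highest without wild type library 1, 0 to 18 in microglia-like nuclei and 0 to 28 for the D1 and D2 difference, both highest without heterozygous library 3. It gave 0 to 2 in oligodendrocyte-like, 0 to 1 in astrocyte-like, endothelial-like, neuroblast-like and Sst/Npy interneuron-like nuclei and the Hapln2/Klk6 cluster, and 1 to 7 in Pvalb/Pthlh interneuron-like nuclei. The cause of these shifts was not tested.

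The replicate block gave 23 genes in D1 and 13 in D2 MSN-like, 1 in endothelial-like nuclei and 1 in the Hapln2/Klk6 cluster, and 0 potassium channel genes. In the labels, libraries with the same number share only that number. Their deviations over all nuclei correlated at -0.0335, 0.141 and -0.0761, and not every library correlated best with its own number. The mix of nuclei also enters these correlations, so they cannot decide whether libraries of the same number were paired.

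Of 92 members, 87 kept their highest class with doublets kept and 91 when clustered with Kcn genes, Kcnq3 moving to oligodendrocyte-like nuclei. In both, choroid plexus, ependymal and fibroblast-like levels were not recomputed. Matching was not run in OPC-like, cholinergic and Sst/Npy interneuron-like nuclei, which had under 20 matched nuclei, and the Hapln2/Klk6 cluster was not found when clustered with Kcn genes. Groups of 3 libraries limit every test, and levels under 0.1 rest on few nuclei.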
